A study of Danio rerio with 12 samples.

Results

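Chromosome 4 of the zebrafish carries an unusually dense group of genes for zinc finger proteins on its long arm. Here these were the genes of the deposited count table on chromosome 4 with a start at or above 27000000 (Zv10 coordinates, as the table heads them) and a symbol beginning with znf. The rule gave 96 of the 22737 genes in the table, and 46.8% of its 205 znf genes. No measured value entered the rule, but it was set with earlier results of these data known. Only symbols with znf in lower case were matched, here and for the znf genes elsewhere. Some symbols of the table are in capitals, and any zinc finger gene written so is not counted among the znf genes. Levels in CPM (a gene's counts scaled to a common library total) were compared in 12 libraries of total RNA, 2 per group. The study asked how transcripts differ in embryos without Anp32e, a chaperone that removes the histone variant H2A.Z from nucleosomes. Anp32e null embryos at shield stage, labelled 6 h after fertilization, were of strain NHGRI. Maternal null and paternal null shield embryos came from crosses of Tu and NHGRI fish in which the mother or the father was mutant. A further group was embryos at sphere stage, which precedes shield, labelled as injected with Anp32e protein. The last group is labelled as sperm from null fish. The labels name no strain for these 2 groups. Wild type shield embryos, of strain Tu, were the comparison for all embryo groups, and null shield embryos that for the sperm label. Strain therefore differed together with genotype in each comparison with wild type, and its effect cannot be told apart from that of the mutation. The same holds for null embryos set against either cross. Between the crosses, reciprocal ones of the same 2 strains, each parent's strain differed together with its genotype. These cannot be told apart either. How many embryos went into a library is not given.

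Proteins of the C2H2 zinc finger class carry tandem fingers, each a small fold held together by a zinc ion, and many bind DNA through them and act as regulators of transcription. The long arm of zebrafish chromosome 4 is repeat-rich, late-replicating heterochromatin, and holds large families of similar znf genes and of immune receptor genes. Genes of this arm have been described among the transcripts made when the embryo first switches on its own genome, which begins before sphere stage. The functions of most individual genes among the 96 are not described, and the names below are identifiers rather than statements of role. The 96 genes lie between positions 28644783 and 75652002. Of them, 35 overlap another gene of the table, and 7 overlap another znf gene of the group. Whether the counting used strand is not given, and these paralogs are similar in sequence, so reads of overlapping genes or of near copies may have been assigned to either. No gene of the 96 had the same counts as another gene in every library. The nearest znf genes to the boundary were znf800b outside it, at 3442337 to 3462052, with 101 and 96.8 CPM in null and 66.3 and 95.02 CPM in wild type embryos, and znf1120 inside it, at 28644783 to 28651122, with 7.47 and 8.49 CPM in null and 13.3 and 8.73 CPM in wild type embryos.

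Library totals ranged from 13.5 to 47.7 M counts. In 4 groups (injected, null and both crosses) the libraries of a pair differed barely beyond sampling noise, at a chi-square per degree of freedom of 1.05 to 1.17 over genes with 20 or more counts, so each of these pairs was summed and counted as 1 sample. Those of wild type (95.2) and of the libraries labelled sperm (42.9) differed far more and were kept as 2. Nothing in the labels says that any libraries came from separate clutches, so p-values measure the spread between these samples, which may be technical. The targeted gene, anp32e, stood at 81.2 and 80.5 CPM in null embryos, at 1212 and 1226 CPM in maternal null, at 1420 and 1413 CPM in paternal null and at 2285 and 3172 CPM in wild type embryos. The libraries labelled sperm went in large part against their label: markers of oocytes (6 of 8 listed genes in the table) summed to 6362 and 6871 CPM there, and markers of sperm and flagellum (8 of 10) to 16.5 and 20.0 CPM. The latter sum was still above that of every embryo library, the highest being 9.31 and 8.70 CPM in injected sphere embryos. The sum of listed germ line genes was also highest in the libraries labelled sperm, at 649 and 720 CPM, against 339 and 338 CPM in injected sphere embryos. This list does not tell male from female germ cells. Of its genes, piwil1, sycp1, sycp2 and dazl were highest there. By contrast, ddx4 was lower there (48.5 and 35.1 CPM) than in every embryo library, and sycp3 (1.36 and 1.57 CPM) lower than in every shield library. Markers of testis soma (6 of 6) summed to 6.23 and 5.99 CPM there and to 5.74 and 5.22 CPM in injected sphere embryos. Of these, gsdf was higher and cyp11c1 lower there than in every embryo library. Markers of the enveloping layer, the embryo's outer epithelium (7 of 7), also differed between shield libraries. They summed to 5973 and 5980 CPM in null, 2741 and 2742 in maternal null, 7904 and 7894 in paternal null, and 3101 and 1465 in wild type embryos. Single genes departed from the order of the sums. Both krt17 and agr1 were highest in null embryos, and grhl3 in null (92.6 and 95.1 CPM) lay between the wild type libraries (186 and 42.2 CPM). For the yolk syncytial layer, which lies between embryo and yolk, the sum of the markers (5 of 6 in the table) was highest in null and lowest in wild type embryos. It was 233 and 238 CPM in null, 182 and 184 in maternal null, 177 and 179 in paternal null, and 106 and 83.7 in wild type embryos. Not every gene of the list followed this order. The gene mxtx2 was lowest in null, with 1.32 and 1.27 CPM against 6.92 and 2.07 CPM in wild type, and mxtx1 and hnf4a were highest in the crosses. The listed germ line genes (6 of 7) summed to 89.9 and 89.8 CPM in null and 212 and 162 in wild type embryos. Early blastula zygotic genes (8 of 8) summed to 4112 and 4123 CPM in null and 2624 and 3459 in wild type embryos. Single genes of these 2 lists went either way. Most of the second sum was apoeb, with 3296 and 3310 CPM in null and 1581 and 2571 in wild type embryos. Against it, ved was lower in null, with 198 and 196 CPM, than in wild type, with 325 and 357 CPM. In the first list piwil1 was lower in null (13.3 and 11.5 against 64.0 and 54.5 CPM) and sycp1 higher (10.1 and 10.2 against 1.47 and 0.370 CPM). No enveloping or yolk syncytial layer marker in the table was at 0 in a shield library. The part of these markers in the results was not tested.

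The znf transcripts were present in all embryo groups and nearly missing from the libraries labelled sperm. Summed over the 96 genes, they reached 15.1 and 14.0 CPM in the libraries labelled sperm, 609 and 625 CPM in injected sphere embryos, 427 and 432 CPM in null, 530 and 543 CPM in maternal null, 467 and 477 CPM in paternal null and 705 and 538 CPM in wild type embryos. All 6 libraries of null and cross embryos except 1 of maternal null lay below both wild type libraries. The mean of null embryos was 69.1% of the wild type mean, that of maternal null 86.3% and that of paternal null 76.0%, beside an SD of 118 CPM between the wild type libraries (n = 2, mean 621 CPM). The wild type libraries themselves differed: 76 of the 96 genes (79.2%) were higher in replicate 1 than in replicate 2, as were 66.1% of all genes tested. In these bulk samples, fewer cells that express a gene and less RNA per cell cannot be told apart.

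**Figure D1:**
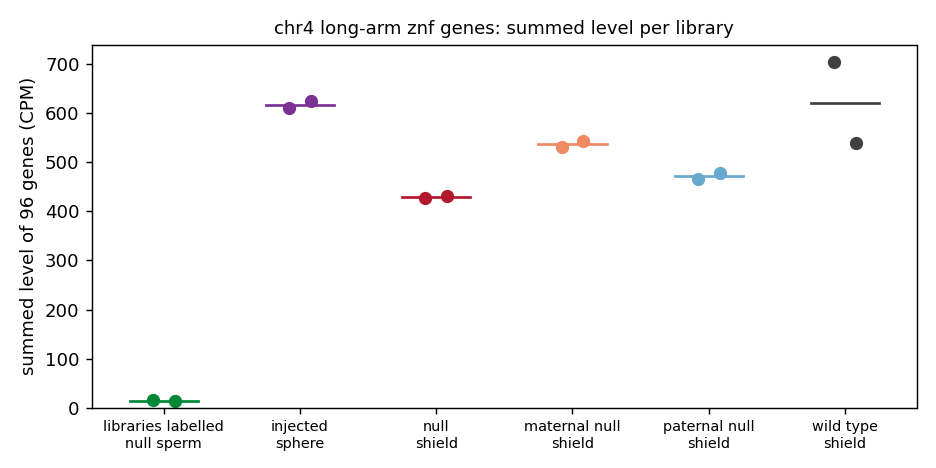
Summed level of the 96 znf genes (CPM, vertical axis) in each library, by group; points are libraries and lines the mean of the 2. The libraries labelled sperm lie at 15.1 and 14.0 CPM and the null embryos at 427 and 432 CPM, below the wild type libraries at 705 and 538 CPM.

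Most of the genes were expressed at a low level. The median over the 96 genes of a group's pooled level (counts of both libraries over their joint total) was 1.38 CPM in null, 2.59 CPM in maternal null, 2.50 CPM in paternal null and 3.66 CPM in wild type embryos. At least 1 CPM was reached by 58 of the genes in null, 80 in maternal null, 76 in paternal null and 82 in wild type embryos. The gene with the most counts among the 96 was znf1063, at positions 46813155 to 46821473, with 12.8% of their summed CPM in wild type. It had 51.8 and 51.3 CPM in null, 80.1 and 82.3 CPM in maternal null, 70.7 and 71.3 CPM in paternal null and 90.1 and 68.6 CPM in wild type embryos. Its null libraries lay below the others, but the difference from wild type did not pass the test (log2 fold change -0.58 ± 0.57 SE, adjusted p = 0.756).

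Null embryos were first set against wild type. Of the 96 znf genes, all of which were tested, 14 (14.6%) fell in null embryos and 0 rose, by edgeR's quasi-likelihood test at an adjusted p of 0.05, with 1 sample per near-identical pair. Over all 21167 genes tested, 2.74% were called lower and 2.23% higher. At an unadjusted p below 0.05, 27 of the 96 were lower and 0 higher (8.67% and 7.07% of all genes), and DESeq2 called 11 lower and 0 higher (1.87% and 0.967% of the genes it tested). The median log2 fold change was -0.76 over the 96 genes and -0.04 over all genes. In 64 of the 96 both null libraries lay below both wild type libraries (31.6% of all genes), and in 11 both lay above (31.1%). The count rests on a spread with 1 residual degree of freedom, from the wild type pair: with every library taken as a replicate, 45 were called lower and 4 higher of 91 tested (19.4% and 16.8% of all genes). Without wild type replicate 1 or replicate 2 the calls lower were 25 and 45, and the calls higher 1 and 3, with the spread then taken from the libraries labelled sperm. Over all genes 9.05% were called lower and 10.5% higher without replicate 1, and 18.2% and 15.9% without replicate 2.

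In 5 of the 14 genes, znf1062, znf1106, znf1054, znf1130 and znf1126, the transcript was close to missing from null embryos, with a pooled level under 0.1 CPM. The gene znf1062, at positions 40615412 to 40624403, had 0.0389 and 0.0472 CPM in null, 4.43 and 4.24 CPM in maternal null, 4.02 and 4.80 CPM in paternal null and 10.03 and 6.88 CPM in wild type embryos. These are 1 count in each null library against 252 and 93 counts in the wild type libraries, a level 209-fold lower in null (95% counting interval 57.5 to 1736), with a log2 fold change of -7.47 ± 1.09 SE and an adjusted p of 8.05e-09. Both crosses stood between null and wild type, with no overlap of libraries. This gene overlaps 1 other gene of the table.

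The transcript of znf1106, at 62361899 to 62369289, had 0 counts in both null libraries. It had 1.03 and 1.36 CPM in maternal null, 1.28 and 1.46 CPM in paternal null and 1.87 and 2.44 CPM in wild type embryos, where it drew 47 and 33 counts. Against a floor of 3 counts over the null group it was at least 32.4-fold lower in null than in wild type embryos (adjusted p = 3.64e-06). The next gene of the group along the chromosome, znf1054 at 62424517 to 62433337, had 0.0778 and 0.0472 CPM in null, 2.22 and 1.91 CPM in maternal null, 1.70 and 2.17 CPM in paternal null and 3.70 and 3.62 CPM in wild type embryos (log2 fold change -5.73 ± 1.04 SE, adjusted p = 8.97e-06). Here the wild type libraries lay close together, and the crosses again stood between them and null. A similar order was seen for znf1130, at 39457252 to 39480384, with 0.0778 and 0.0943 CPM in null, 2.11 and 1.70 CPM in maternal null, 1.18 and 1.29 CPM in paternal null and 3.38 and 3.62 CPM in wild type embryos (log2 fold change -5.28 ± 1.01 SE, adjusted p = 3.20e-05). None of these 3 genes overlaps another gene of the table. The last of the 5, znf1126 at 63418264 to 63424177, drew 3 and 0 counts in null embryos (0.117 and 0 CPM), against 37 and 12 counts in wild type (1.47 and 0.887 CPM, adjusted p = 0.00979). Its call was lost with DESeq2 and without null replicate 2, where the log2 fold change was -4.15 and -3.27.

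The other 9 genes had a pooled level of at least 0.1 CPM in null embryos. That cut divides close counts: znf1130, below it, drew 2 and 2 counts in null, and znf1052, above it, 4 and 1. The level of znf1097, at 55917549 to 55928600, was 0.272 and 0.236 CPM in null, 3.35 and 2.88 CPM in maternal null, 3.02 and 2.67 CPM in paternal null and 7.96 and 4.44 CPM in wild type embryos (log2 fold change -4.53 ± 0.88 SE, adjusted p = 4.93e-05). Higher levels remained for znf1147, at 62619102 to 62627902, with 0.817 and 0.943 CPM in null, 4.97 and 4.54 CPM in maternal null, 4.96 and 4.42 CPM in paternal null and 8.99 and 10.9 CPM in wild type embryos (log2 fold change -3.48 ± 0.78 SE, adjusted p = 0.000753). In both genes the wild type libraries lay above all others. For znf999, at 55044049 to 55088179, null embryos had 0.739 and 0.943 CPM, maternal null 5.46 and 4.88 CPM, paternal null 3.69 and 4.88 CPM and wild type 13.1 and 4.81 CPM, so the crosses overlapped the lower wild type library (log2 fold change of null over wild type -3.35 ± 0.78 SE, adjusted p = 0.00134). It overlaps 2 other genes of the table.

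The remaining genes had larger spread or smaller differences. For znf1042, at 32779343 to 33001761, null embryos had 0.117 and 0.377 CPM and wild type 4.30 and 1.63 CPM. The weakest call, znf1052 at 30567125 to 30573715, rested on 4 and 1 counts in null and 47 and 5 counts in wild type (0.156 and 0.0472 CPM against 1.87 and 0.370 CPM, adjusted p = 0.0301). The wild type libraries of these genes differed widely, and each null library still lay below both. The call of znf1052 was lost without wild type replicate 1, with a log2 fold change of -1.83, without null replicate 2 (-2.80), with DESeq2 (-3.30) and with the spread of all groups (-3.36). The other members of the 14 were znf1123 (log2 fold change -3.05), znf1133 (-3.03), znf1000 (-2.75) and znf1129 (-2.60), with adjusted p-values between 0.00546 and 0.0202. In all 14, both null libraries lay below both wild type libraries and below all libraries of both crosses. The order against wild type is largely given by how the 14 were chosen, and the null values used in that choice also enter the comparison with the crosses. Of the 14, 8 overlap no other gene of the table and 6 do.

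**Figure D2:**
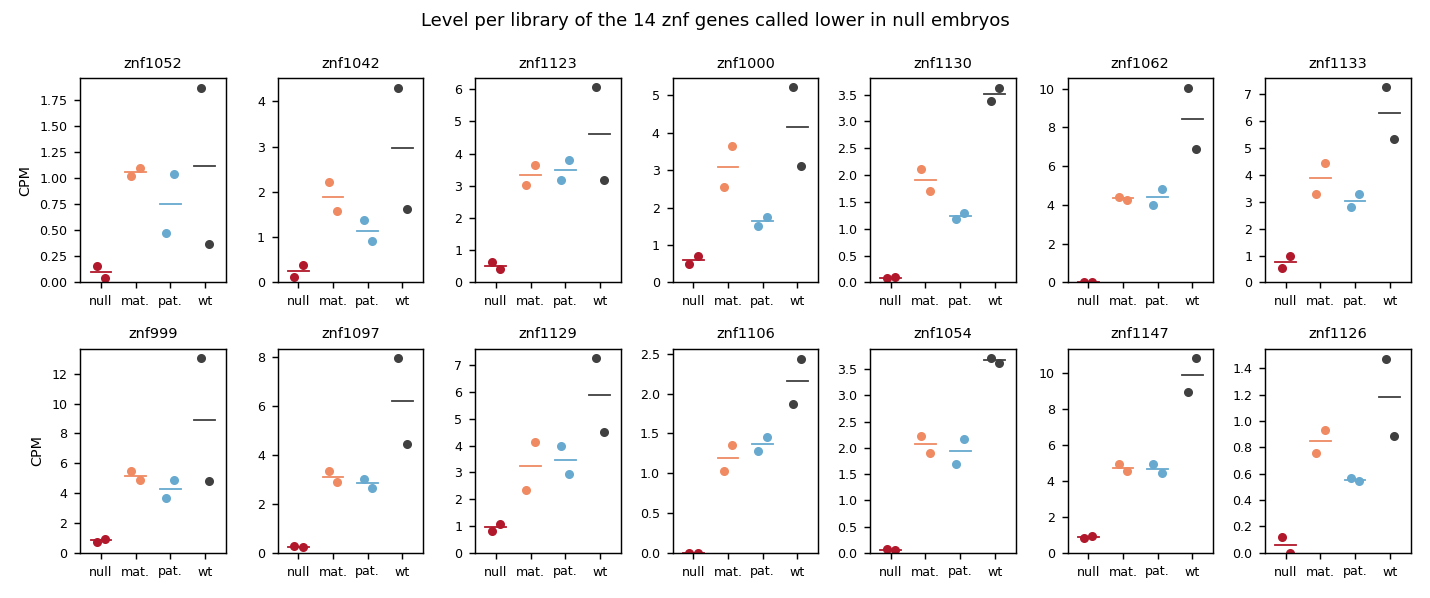
CPM per library (vertical axes, each from 0 with its own scale) of the 14 znf genes called lower in null embryos, in order along the chromosome; mat. is maternal null, pat. paternal null, wt wild type, points are libraries and lines the mean of the 2. In each panel both null points lie lowest, as for znf1054 with 0.0778 and 0.0472 CPM in null and 3.70 and 3.62 CPM in wild type.

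The 82 genes that did not pass the test varied widely. Relative to wild type, their pooled level in null embryos ranged from 0 to 286% with a median of 62.9%, and 65 of the 82 were below wild type. Over all 96 genes, 79 had a fitted log2 fold change below 0, beside 11022 of the 21167 genes tested. Among the 11 whose null libraries both lay above both wild type libraries, the highest ratio was that of znf1045, with 2.37 and 2.03 CPM in null and 0.438 and 1.40 CPM in wild type embryos (adjusted p = 0.386). The abundant genes znf1065 and znf1059 were also among the 11. They had 35.9 and 34.0 CPM, and 34.9 and 35.7 CPM, in null embryos, against 25.2 and 24.0 CPM, and 24.95 and 25.07 CPM, in wild type. These values do not overlap, yet neither difference passed the test (log2 fold change 0.54 ± 0.56 SE and 0.52 ± 0.56 SE). With every library as a replicate both were called higher (edgeR adjusted p = 0.0109 and 0.0146). The 2 genes overlap 4 and 7 other genes of the table. Besides znf1106, znf1039 also had 0 counts in both null libraries, but with 0.318 and 0.148 CPM in wild type it was not called (adjusted p = 0.130).

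The crosses carried the mutation from a single parent and were set against the same wild type libraries as null embryos. In maternal null embryos 0 of the 96 genes were called by edgeR (0.203% of all genes lower, 0.364% higher), 0 had an unadjusted p below 0.05 (1.74% lower, 2.21% higher) and DESeq2 called 0 (0.168% lower and 0.15% higher). In paternal null embryos 0 were called (0.0520% of all genes lower, 0.184% higher), 1 was lower at an unadjusted p below 0.05, znf1130 (1.37% of all genes lower, 3.42% higher), and DESeq2 called 0 (0.00945% lower and 0.0142% higher). With every library taken as a replicate, 3 were called lower and 1 higher in maternal null (2.67% and 3.33% of all genes), and 18 lower and 0 higher in paternal null embryos (2.32% and 4.70%). The median log2 fold change was -0.39 in maternal null and -0.51 in paternal null embryos, where it was -0.02 over all genes in both. Pooled levels were below wild type for 81 of the 96 genes in maternal null and for 84 in paternal null embryos. The fitted log2 fold change was below 0 for 76 and 84 of the 96, beside 11053 and 10931 of the 21167 genes tested. Pooled wild type levels lean to replicate 1 (25.1 M counts, against 13.5 M in replicate 2), where 76 of the 96 genes were higher. In 41 genes both maternal null libraries lay below both wild type libraries (22.4% of all genes), and in 62 both paternal null libraries did (22.8%).

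The 14 genes that fell in null embryos took intermediate pooled levels in the crosses. Their pooled level was 0 to 14.9% of wild type in null embryos (median 7.45%), 45.9 to 79.5% in maternal null (median 55.4%) and 33.6 to 69.4% in paternal null embryos (median 47.5%). By pooled level all 14 had both crosses between null and wild type, as had 52 of the 96. The share of all genes with this order was not computed. By library, both maternal null libraries lay below both wild type libraries in 8 of the 14, and both paternal null libraries in 11. Over all genes these shares were 22.4% and 22.8%. In the rest of the 14 the cross reached the lower wild type library. The null values were used in choosing these 14, and the 3 ratios share the wild type libraries. Over the 96 genes the median level was 53.5% of wild type in null, 70.1% in maternal null and 65.0% in paternal null embryos. These percentages lean to wild type replicate 1, which holds more of the pooled counts.

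Null embryos were then compared with each cross. Against maternal null, 5 of the 96 genes fell in null and 0 rose (0.803% of all genes lower, 0.274% higher), and against paternal null the same 5 fell and 0 rose (1.35% and 0.416%). These 5 were znf1062, znf1106, znf1054, znf1130 and znf1097. For znf1062 the log2 fold change was -6.55 ± 1.10 SE against maternal null and -6.58 ± 1.10 SE against paternal null embryos. For znf1097 it was -3.57 ± 0.90 SE and -3.45 ± 0.89 SE. The values against either cross differed by less than their SEs. Against maternal null DESeq2 gave an adjusted p for 84 of the 96 and called 3 lower and 0 higher (0.402% and 0.054% of all genes given one). Against paternal null it gave 83 an adjusted p and called 4 lower and 0 higher (0.85% and 0.105%). Every library as a replicate gave 36 lower and 4 higher against maternal null (17.5% and 14.5% of all genes). Against paternal null it gave 21 lower and 6 higher (19.4% and 16.7%). The call of znf1130 against paternal null was lost without null replicate 1, at a log2 fold change of -3.66, and with DESeq2 (-3.84). Against maternal null DESeq2 lost those of znf1106 (-8.26) and znf1130 (-4.45). With the spread of all groups, the calls of znf1106 (-8.65), znf1130 (-4.40) and znf1097 (-3.56) were lost against maternal null. Against paternal null those of znf1130 (-3.77) and znf1097 (-3.41) were lost with it. Between the crosses, 0 genes were called in maternal null over paternal null embryos by edgeR (0.307% of all genes higher, 0.184% lower), 0 had an unadjusted p below 0.05 (1.46% higher, 2.62% lower) and DESeq2 called 0 (0.135% higher, 0.141% lower). With every library as a replicate 1 was higher and 0 lower (3.66% and 5.61% of all genes). The median log2 fold change of the 96 there was 0.20. In 49 of the 96 genes both maternal null libraries lay above both paternal null libraries (36.2% of all genes) and in 9 below (36.6%).

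The interaction of both parents' genotypes asks whether a mutant father changes a gene by the same factor in a mutant and in a wild type mother. Strain differed together with genotype here too, and the effects cannot be told apart. On the log2 scale 2 of the 96 genes had a negative interaction and 0 a positive one (0.203% and 0.113% of all genes). The value was -5.66 ± 1.25 SE for znf1062 (adjusted p = 0.00603) and -7.78 ± 1.97 SE for znf1106 (adjusted p = 0.0353), so null embryos had less of both transcripts than the product of the factors of the crosses. For znf1106 the size depends on its 0 counts in null embryos and is no bound. DESeq2 called 0 of the 96 (0.00472% of all genes higher, 0.0331% lower), and 9 had an unadjusted p below 0.05 in the negative direction and 0 in the positive (3.66% and 1.86% of all genes). With every library as a replicate 10 were negative and 6 positive (10.2% and 6.8% of all genes).

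Along the chromosome the 14 genes were spread over the arm. Taken in steps of 5 Mb, 4 of 12 znf genes fell in null embryos between 30 and 35 Mb, 4 of 15 between 60 and 65 Mb, 3 of 15 between 55 and 60 Mb, and 1 each of 8, 18 and 5 between 35 and 40, 40 and 45, and 50 and 55 Mb. None of the 11 genes between 45 and 50 Mb fell, nor did any of the 3 below 30 Mb or of the 5, 2 and 2 in the steps from 65 Mb on. Over all genes tested 2.74% were called lower, and with so few znf genes per step 0 calls do not show that a stretch was spared. Of the other genes of the arm, 7 of 48 were called lower below 30 Mb and 5 of 67 between 45 and 50 Mb. In the steps from 65 Mb on these were 4 of 58, 1 of 93 and 0 of 42. In a run of 9 neighbours at 62264613 to 63424177, picked out after the values were seen, all had 0 to 32.0% of the wild type level in null embryos, and 4 fell. In another of 4 neighbours at 54128643 to 55928600, picked in the same way, levels were 3.80 to 25.4% and 3 fell. Between such runs lay genes with levels at or above those of wild type.

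**Figure D3:**
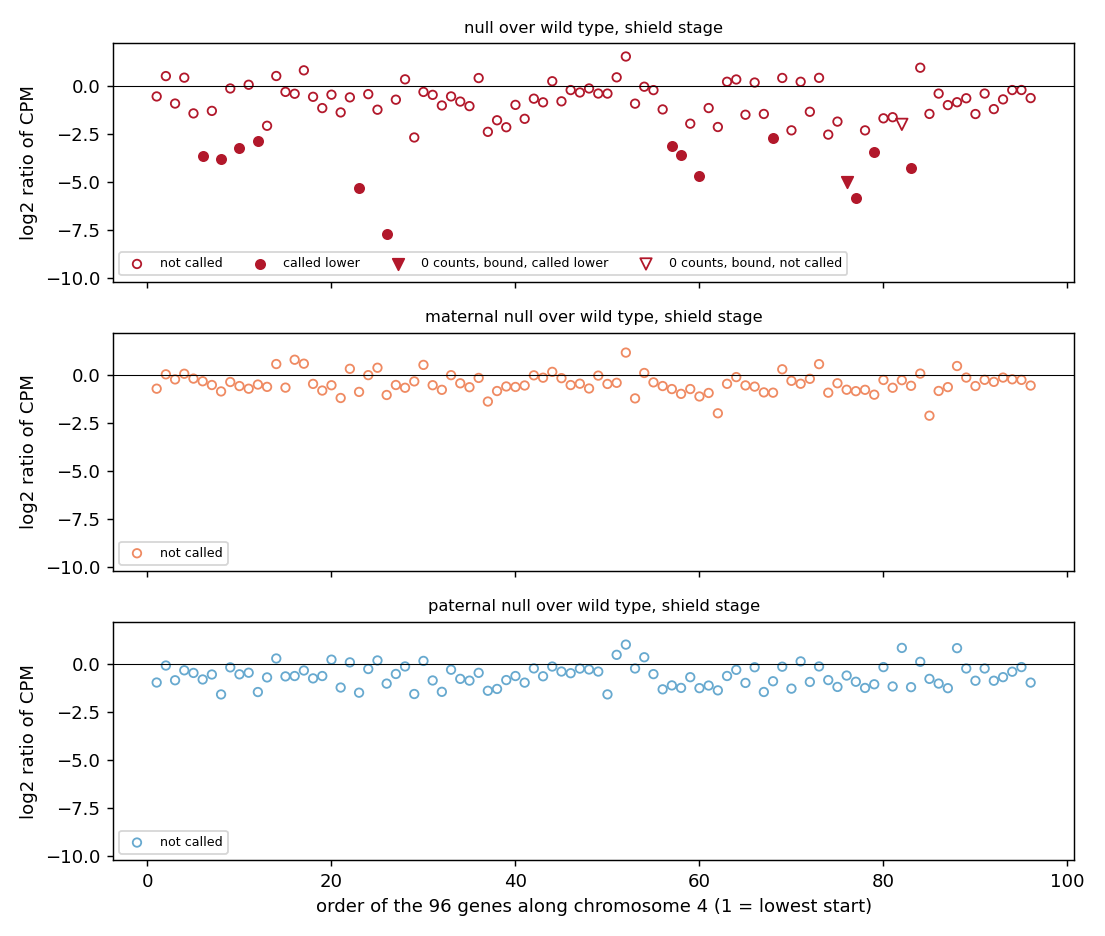
Ratio of the pooled CPM of each znf gene to that of wild type (log2, vertical axis) for null, maternal null and paternal null embryos, in order along the chromosome (horizontal axis, from 1 for the lowest start); filled symbols passed the test, and triangles are bounds for genes with 0 counts in null. The 14 filled symbols are in the upper panel, the lowest being znf1062 with a level 209-fold lower in null, and the crosses have none.

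Other genes of the arm were also lower in null than in wild type embryos. Of 704 other genes tested from 27 Mb on, 66 (9.38%) fell and 1 rose, with a median log2 fold change of -0.48. On chromosome 4 below 27 Mb 21 of 518 (4.05%) fell, with a median of 0.04, and of the znf genes elsewhere in the genome 1 of 107 (0.935%) fell, with a median of -0.08. The share called lower among the 96 znf genes of the arm was thus the highest of these 4 classes, in a description with no test between classes. The classes were set by symbol alone. The other genes of the arm may therefore include zinc finger genes with another symbol or none, and the contrast is not one between gene families. In null over maternal null embryos the medians were -0.47 for the 96 genes, -0.26 for the other genes of the arm, -0.03 for chromosome 4 below 27 Mb and 0.02 for znf genes elsewhere. In null over paternal null embryos the 96 genes had a median of -0.31, while the other genes of the arm, at -0.05 with 1.85% called lower, lay near all genes tested, at -0.03 with 1.35% called lower.

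**Figure D4:**
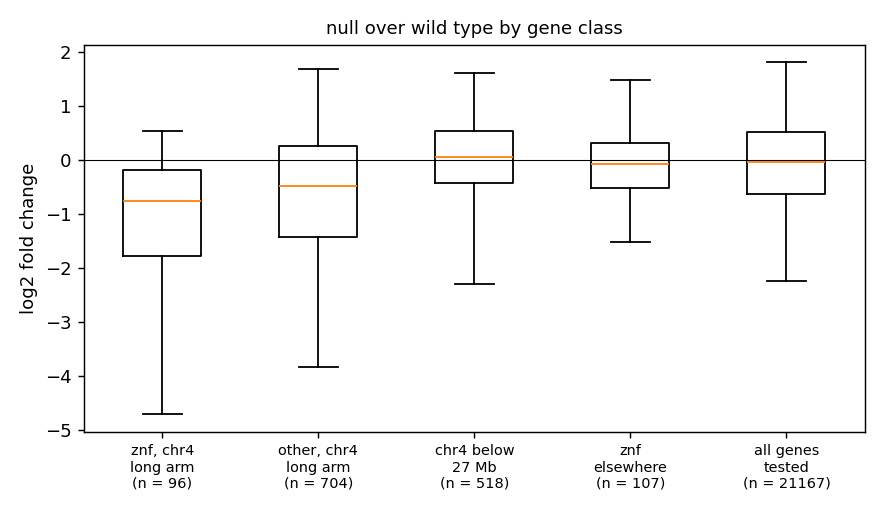
Log2 fold change of null over wild type embryos (vertical axis) in 5 classes of tested genes; boxes run from the lower to the upper quartile with the median as a line, and whiskers from the 5th to the 95th percentile. The medians are -0.76 for the 96 znf genes of the arm, -0.48 for its other genes and -0.04 for all genes tested.

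Sphere embryos injected with Anp32e protein were compared with wild type shield embryos, which differ from them in stage, injection and possibly strain at once, so that these cannot be told apart. The summed level of the 96 genes was 99.3% of wild type shield in CPM but 75.4% with library sizes scaled by TMM, which shifts all genes by 0.40 on the log2 scale between these groups. On the TMM scale 26 of the 96 genes fell in sphere embryos and 6 rose (12.9% and 15.8% of all genes), with a median log2 fold change of -0.87 beside 0.00 over all genes. DESeq2 called 23 lower and 3 higher (15.7% and 12.9%), and every library as a replicate gave 58 lower and 10 higher (32.1% and 31.6%).

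Behind this balance stood genes that were far higher in sphere. The level of znf1125, at 35848810 to 35856282, was 29.3 and 28.7 CPM in sphere embryos, against 1.03 and 1.18 CPM in wild type shield embryos (log2 fold change 4.34 ± 0.48 SE, adjusted p = 0.000893). That of znf1126 was 30.1 and 30.5 CPM in sphere, against 1.47 and 0.887 CPM in wild type shield embryos (4.29 ± 0.47 SE, adjusted p = 0.000893). For znf1127, at 40439383 to 40454597, sphere embryos had 37.0 and 39.0 CPM and wild type shield embryos 3.66 and 1.33 CPM (3.55 ± 0.49 SE, adjusted p = 0.00136). In all 3 the groups lay far apart. The other genes that rose were znf1145 (log2 fold change 1.91), znf1050 (1.79) and znf1058 (2.85). The gene znf1126 was thus both higher in sphere and, as above, among the 14 lower in null shield embryos. Of those 14, 1 rose and 1 fell in sphere and 12 were not called. The gene that fell was znf1129, with 1.37 and 2.00 CPM in sphere and 7.28 and 4.51 CPM in wild type shield embryos.

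Other genes had hardly any transcript in sphere embryos. The gene znf1131, at 61330858 to 61335738, had 0 counts in both sphere libraries, against 2.87 and 0.739 CPM in wild type shield embryos, which makes it at least 33.3-fold lower in sphere than in pooled wild type, and at least 11.6-fold lower than in wild type replicate 2 alone. With 0 counts as well, znf1104 was at least 6.08-fold lower, against 0.358 and 0.444 CPM in wild type shield embryos. More abundant genes that fell were znf569l, with 0.998 and 1.22 CPM in sphere and 13.4 and 6.58 CPM in wild type shield embryos (log2 fold change -3.52 ± 0.56 SE, adjusted p = 0.00220), and znf1077, with 0.873 and 1.26 CPM in sphere and 11.3 and 4.95 CPM in wild type shield embryos (-3.28 ± 0.60 SE, adjusted p = 0.00460). Neither passed the test in null over wild type shield embryos, and znf1077 had 10.2 and 10.6 CPM in null. Neighbours were alike in runs picked out after their values were seen: all 7 genes at 59753638 to 61335738 fell in sphere, to 0 to 26.6% of wild type shield, as did all 5 at 67756435 to 70150606, to 10.1 to 19.3%. By contrast, the 9 neighbours at 62264613 to 63424177 with low levels in null embryos stood at 93.0% of wild type shield or higher in sphere in CPM. Of these 9, 0 were called lower in sphere. The percentages of all these runs depend on the scaling, since TMM lowers sphere levels relative to wild type shield by 0.40 on the log2 scale.

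**Figure D5:**
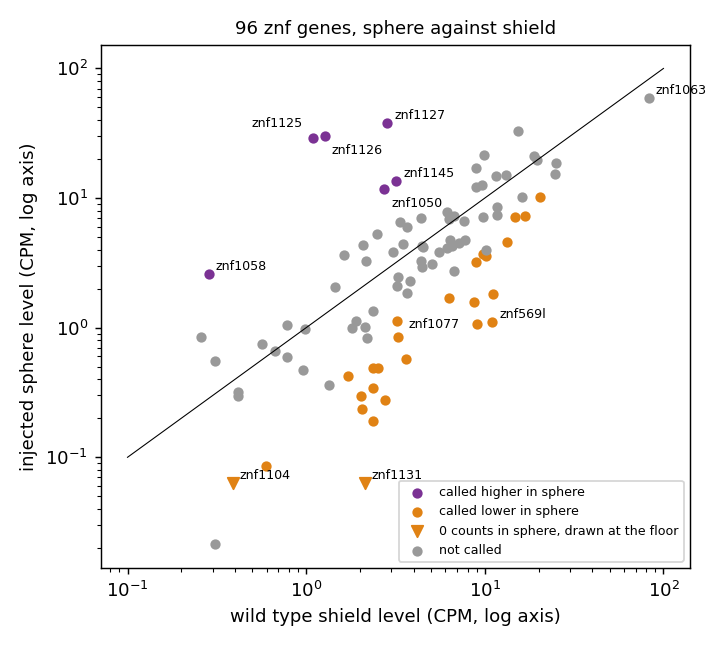
Pooled level of the 96 znf genes in injected sphere embryos (vertical axis) against wild type shield embryos (horizontal axis), both in CPM on log axes; the line marks equal levels, and triangles are genes with 0 counts in sphere drawn at the floor of 3 counts. The 6 genes called higher, znf1125, znf1126 and znf1127 foremost, lie well above the line, and the 26 called lower lie below it.

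In the libraries labelled sperm 91 of the 96 genes (94.8%) were lower than in null shield embryos and 0 higher, where 30.5% of all genes were lower and 30.0% higher. DESeq2 called 88 lower and 0 higher (26.8% and 25.9% of the 21831 genes it gave an adjusted p). Every library as a replicate gave 92 lower and 0 higher (39.1% and 41.3% of all genes). The median log2 fold change over the 96 was -6.07 as fitted, and 34.5-fold lower with genes at 0 counts set to the floor of 3 counts over the group (0.0347 CPM). The most abundant gene in embryos, znf1063, had 2 and 3 counts in the libraries labelled sperm, against 1331 and 1088 counts in null shield embryos. With 0 counts there, znf1077 was at least 299.7-fold lower in the libraries labelled sperm than in null shield embryos. Of the 96 genes, 31 had 0 counts in both libraries, 31 had 1 to 3 counts, and 80 lay below 0.1 CPM. The 5 genes not called lower included znf1106 and znf1039, with 0 counts in both groups, as well as znf1062, znf1052 and znf1115.

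Only 3 of the genes exceeded 1 CPM there, and they were the 3 nearest the end of the chromosome. They were znf989, at 72009518 to 72016929, with 3.84 and 3.64 CPM in the libraries labelled sperm and 16.2 and 15.8 CPM in null shield embryos, znf1185, at 75644407 to 75652002, with 4.07 and 2.74 CPM and 8.01 and 9.06 CPM, and znf1009, at 75470341 to 75603963, with 1.53 and 1.57 CPM and 9.30 and 10.4 CPM. These 3 drew 60.1% of the counts of all 96 genes in the libraries labelled sperm and 8.0% in null shield embryos. Other genes of the arm were also lower there, 551 of 752 (73.3%), against 170 of 558 (30.5%) on chromosome 4 below 27 Mb and 61 of 108 (56.5%) of the znf genes elsewhere.

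Genes that set or read silent chromatin and activators of the zygotic genome were looked at alongside, from lists of 28 and 8 genes. Of these, 17 and 6 were tested. By edgeR 0 of the 17 and 0 of the 6 were called in null over wild type embryos (2.74% of all genes lower, 2.23% higher). In this comparison 0 of the 17 and 1 of the 6 had an unadjusted p below 0.05 (8.67% of all genes lower, 7.07% higher). DESeq2 called 0 of both (1.87% and 0.967%). With every library as a replicate, 2 of the 17 were called higher and 4 lower, and 1 of the 6 higher and 2 lower, where 16.8% of all genes were called higher and 19.4% lower. In sphere over wild type shield embryos edgeR called 2 of the 17 higher and 2 lower, and 2 of the 6 higher and 1 lower. Over all genes 15.8% were called higher and 12.9% lower there. Among the 17, dnmt1, which encodes the maintenance DNA methyltransferase, had 754 and 762 CPM in sphere and 217 and 215 CPM in wild type shield embryos and rose (adjusted p = 0.0180). The heterochromatin protein gene cbx3b rose as well (log2 fold change 2.23), while the de novo DNA methyltransferase genes dnmt3ba (-1.35) and dnmt3bb.2 (-1.73) fell. Of the activators sox19b (1.83) and nanog (1.96) rose and sox3 (-1.61) fell in that comparison.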

How the data were processed

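The table holds counts per Ensembl gene as deposited by the authors, with no normalization, and the lowest maximum over libraries is 10 counts. Per the labels' protocols, embryos were lysed in Trizol with SDS and ribosomal RNA was depleted before stranded library preparation. Novoalign 2.8 and DESeq2 are named, without a role, in the submitters' processing notes; for the counter, its strand setting and the annotation release the sources used here give nothing. Symbols were matched by Ensembl identifier for 20669 of 22737 genes (90.9%).

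From the counts, CPM were computed by library total. Tests used edgeR 4.0.16 under R 4.3.3 (robust quasi-likelihood F test, TMM scaling, filterByExpr by group, Benjamini-Hochberg adjustment over all genes tested at 0.05). Libraries of a group with a chi-square per degree of freedom under 1.5 were summed to 1 sample. Comparisons among shield groups came from 1 fit of 5 samples (1 residual degree of freedom, common biological coefficient of variation 0.344, 21167 genes), and the others from a fit of all groups (2 residual degrees of freedom, 0.262, 22712 genes). DESeq2 1.42.0, every library as a replicate, a replicate block, DESeq2 size factors, no filter and leaving out each library were the alternatives. By comparison, DESeq2 gave an adjusted p for 83 to 96 of the 96 genes, and its shares are of all genes given one. All 96 genes passed the filter in both fits, and 91 passed it in the shield fit with every library as a replicate. The SE printed with an edgeR log2 fold change is its absolute value over the square root of the F value. It was thus derived from the test and not estimated separately. Counting intervals (95%, exact) and the floor of 3 counts cover counting error only.

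The members and lists were chosen with earlier results of these data known. Named genes are, per comparison, up to 10 past the test by size of log2 fold change, those with the most counts, those at 0 counts in a group with at least 2 CPM in the other, those past the interaction test, and the genes nearest the boundary. The others named (znf1000, znf1123, znf1129, znf1133, znf1039, znf1045, znf1050, znf1058, znf1115, znf1145 and znf1185) were chosen after their values were seen. Tested on simulated data for null over wild type (20604 genes), the fit recovered 37% of 4-fold and 99% of 16-fold changes and called 7 unchanged genes. The changed genes were drawn only from those above a minimum expected count, so these shares do not cover genes with few counts. All simulated samples, summed pairs included, were given the spread estimated from the wild type pair.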

Additional observations from a re-analysis of the deposited data

Results flagged for a closer look

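The interaction of both parents' genotypes passed the test for znf1062 (log2 value -5.66, adjusted p = 0.00603 in edgeR) and znf1106 (-7.78, adjusted p = 0.0353). The log2 difference between embryos of mutant and of wild type fathers was thus more negative with mutant mothers than with wild type mothers. The call of znf1062 was lost with DESeq2 and with the spread of all groups, at log2 values of -5.75 and -5.63. That of znf1106 was lost with both as well, at -7.61 and -8.00, and without either null library or without maternal null replicate 2, at values from -7.60 to -7.34. Both rest on 2 and 0 counts over the 2 null libraries.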

How the results depend on the processing

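The counts of genes called moved with how near-identical libraries enter and with leaving out a wild type library, and so did the shares of all genes called, given in brackets. With every library as a replicate the calls among the 91 genes tested were 49 in null (36.2%), 4 in maternal null (6.01%) and 18 in paternal null over wild type (7.02%), 40 in null over maternal null (32.0%), 27 in null over paternal null (36.1%), 1 in maternal over paternal null (9.28%) and 16 for the interaction (17.0%), and 68 of 95 in sphere over wild type shield (63.7%). Same-numbered libraries were not shown to be paired: their deviations correlated by -0.03 to 0.23. With the replicate block, on every library, the counts were 45 in null (32.1%) and 8 in paternal null over wild type (3.34%), 36 and 26 in null over maternal and paternal null (27.9% and 32.3%), 10 for the interaction (11.6%) and 69 in sphere (63.2%). DESeq2 gave 3 in null over maternal null (0.456%) and 0 for the interaction (0.0378%). The fit of all 6 groups, chosen after seeing the data, gave 2 and 3 in null over maternal and paternal null (0.238% and 0.819%) and 0 for the interaction (0%). Leaving out 1 library gave 14 to 48 in null, 0 to 6 in maternal null and 0 to 19 in paternal null over wild type, 5 to 30 and 5 to 24 in null over maternal and paternal null, 0 to 2 between the crosses, 1 to 15 for the interaction, 25 to 58 in sphere and 83 to 94 in the libraries labelled sperm. Each of these upper ends came without a wild type library, where the spread comes from the libraries labelled sperm, a choice made after seeing the data. The shares of all genes called there were 34.0% in null, 8.33% in maternal null and 7.55% in paternal null over wild type, 22.1% and 25.9% in null over maternal and paternal null, 7.71% between the crosses, 18.8% for the interaction, 46.8% in sphere and 76.1% in the libraries labelled sperm. TMM scaling moved the summed level to 458 CPM in null, 573 in maternal null, 493 in paternal null and 491 in sphere embryos. With DESeq2 size factors or no filter all counts stayed within 1.5 times, and no gene of the 96 had the counts of another. Median log2 fold changes moved by less than 0.306, the SD from the wild type pair, under every alternative run. Of the values of called named genes, 625 kept direction and call, 22 kept the direction alone and 0 reversed. At a few counts per library, differences among the lowest genes are limited by depth.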
